A study of Mus musculus with 10 samples.

Results

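XBP-1 chromatin immunoprecipitation signal was examined at 8 genes of hepatic insulin and growth factor signalling: the insulin receptor gene Insr, the receptor substrates Irs1 and Irs2, the phosphoinositide 3-kinase regulatory subunit gene Pik3r1, the kinases Akt1 and Akt2, the growth factor gene Igf1 and the binding protein gene Igfbp1. They are 8 of 21883 protein-coding genes considered in the whole series. A peak was assigned to a gene when its summit, the base of highest signal, lay from 5 kb before to 5 kb after the gene's annotated span, a rule that uses no measured value. In the 8 immunoprecipitated libraries, 207 of 271621 peaks met it.

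All libraries came from livers of C57BL/6J mice and were made with an antibody named Xbp-1s by the submitters. A first comparison set fed against fasted wild-type mice (Fed and Fasted, 2 libraries each). A second set wild-type mice that served as controls for a hepatic Ern1 deletion against mice with the liver-specific Ern1 knockout (WT and Ern1-LKO, 2 libraries each). The labels give neither the length of the fast, the age or sex of the mice, the feeding state of WT and Ern1-LKO mice, nor the driver of the deletion, and they do not say which libraries came from separate animals. Fed and Fasted peaks were called against one wild-type liver input library and WT and Ern1-LKO peaks against another, so groups were compared within each comparison.

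Insulin and insulin-like growth factors bind receptor tyrosine kinases that phosphorylate the IRS adaptor proteins. These recruit phosphoinositide 3-kinase, whose lipid product activates AKT, and in liver AKT signalling restrains glucose output and promotes glycogen and lipid synthesis. XBP-1 is a basic leucine zipper transcription factor of the unfolded protein response. Its active form is translated from an mRNA spliced by IRE1alpha, the product of Ern1, and its best-known targets encode chaperones and other proteins of the endoplasmic reticulum.

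The 2 receptor substrate genes shared a short sequence with a CACGTG box just upstream of their start sites. Where a library had a summit within 1 kb of the start, the nearest lay 56 to 461 bases from the box at Irs1. At Irs2 it lay 124 to 310 bases away. The box is itself close to both starts, so a start-site peak falls near it by position, and no link between box and peaks was tested. The following stretches are 30 bases each from RefSeq on the GRCm38.p6 assembly, read 5′ to 3′ on the minus strand, the strand of both genes, with the palindrome CACGTG in capitals. They come from chr1:82291533-82291562 and chr8:11008952-11008981.
Irs1: ggctccgtCACGTGttttgctcctctggag
Irs2: cgcagagtCACGTGttgttttgctcttagt
The first base of the CACGTG box lay 115 bases upstream of the Irs1 start and 44 bases upstream of the Irs2 start. The box occurred in 7.84% of 21262 promoter windows of 300 bases, each running from 250 bases before to 50 after a listed start. The Irs1 and Irs2 windows were compared at every position and matches of at least 10 bases were kept. The shared strings were thus picked from these sequences, and whether such sharing is unusual for 2 windows was not tested. The 10-base string GTCACGTGTT was common to both genes and was present in 21 windows, or 0.0988% of them, on either strand. A second shared string, TGTTTTGCTC, was present in 14 windows, or 0.0658%; the strings overlap at both genes.

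The 250 bases before the first listed start are shown for the 4 genes at which a summit fell inside them in at least 2 libraries. Capitals mark the box CACGTG, the string CCACG and the core ACGT, searched on both strands, so that CCACG on the other strand reads as CGTGG; each CACGTG contains an ACGT. The windows are chr1:82291440-82291689 (minus strand), chr8:11008930-11009179 (minus), chr13:101768218-101768467 (minus) and chr7:27591302-27591551 (plus).
Irs1: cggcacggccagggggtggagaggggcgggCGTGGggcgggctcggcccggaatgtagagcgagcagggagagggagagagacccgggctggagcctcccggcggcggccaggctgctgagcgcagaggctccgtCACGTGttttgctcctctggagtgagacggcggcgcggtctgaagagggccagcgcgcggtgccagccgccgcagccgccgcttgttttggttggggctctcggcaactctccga
Irs2: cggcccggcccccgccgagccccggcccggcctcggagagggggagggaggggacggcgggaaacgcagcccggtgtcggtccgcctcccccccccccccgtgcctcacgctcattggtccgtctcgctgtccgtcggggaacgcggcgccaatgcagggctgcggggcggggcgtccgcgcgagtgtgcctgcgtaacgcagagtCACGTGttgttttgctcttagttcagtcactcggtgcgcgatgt
Pik3r1: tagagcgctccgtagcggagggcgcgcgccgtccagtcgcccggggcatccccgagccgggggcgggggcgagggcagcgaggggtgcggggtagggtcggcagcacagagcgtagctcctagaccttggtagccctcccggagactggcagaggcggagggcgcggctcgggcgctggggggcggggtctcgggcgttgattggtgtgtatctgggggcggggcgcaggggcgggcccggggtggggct
Akt2: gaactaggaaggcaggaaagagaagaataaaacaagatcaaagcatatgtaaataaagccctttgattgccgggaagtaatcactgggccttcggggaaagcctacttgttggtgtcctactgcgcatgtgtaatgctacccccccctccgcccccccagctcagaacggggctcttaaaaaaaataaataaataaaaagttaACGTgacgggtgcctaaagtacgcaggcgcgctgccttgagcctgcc
Summits fell inside these stretches in 4 libraries at Irs2, 3 at Pik3r1 and 2 each at Irs1 and Akt2. Guanine and cytosine made up 72.4% of the Irs1 stretch, 72.8% of Irs2, 76.4% of Pik3r1 and 48.8% of Akt2, while the median over all promoter windows was 56.3%. The Pik3r1 stretch held none of the letters searched, and at Akt2 the ACGT began 47 bases before the start.

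Motifs described for XBP-1 include CCACG, the 3′ part of the endoplasmic reticulum stress element, and TGACGTG. The 7 genes with an entry in the promoter table had 12 windows. CCACG was in at least 1 window of Akt1, Igf1, Igfbp1, Irs1 and Pik3r1, and at Pik3r1 only in that of the second listed start. Of all windows 37.4% held it. That share counts windows and not genes, and a gene with several starts has more windows, so it cannot be set directly against the count of genes. TGACGTG, in 2.17% of all windows, was in no window of the 7 genes, and the full element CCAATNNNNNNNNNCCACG, in 0.141% of all windows, was in none either. Of 9 reference XBP-1 targets with an entry, 4 held the full element. Elements of 2 genes are shown for contrast, with the fixed letters in capitals; both read on the plus strand, from chr2:34772025-34772043 and chr12:17266491-17266509.
Hspa5: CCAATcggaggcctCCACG
Pdia6: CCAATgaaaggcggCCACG
A match describes letters in a window and not a bound site.

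The libraries differed widely in kept tags and in list length. Tags kept after removal of repeats at a position ranged from 4340956 to 17399899. The lists held from 698 peaks (Ern1-LKO replicate 1) to 82975 peaks (Fed replicate 1). The share of all genes with a peak went mostly with list length and did not follow kept tags. Ern1-LKO replicate 2 had the fewest kept tags, 30796 peaks and a peak at 62.4% of all genes. Ern1-LKO replicate 1 had 11995890 kept tags and a peak at 3.58%. WT replicate 1, with 14072378 kept tags, had 6258 peaks, of which 52.0% overlapped a peak of any other library, against 93.8% of the 30327 peaks of WT replicate 2. Fed replicate 1 stood apart in the same measure, at 45.7%. Peak lists hold no RNA levels, so neither the liver label nor the loss of Ern1 could be checked with them. All 10 reference XBP-1 targets had a peak in each of the 8 libraries, both Ern1-LKO libraries included.

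Irs2 and Akt2 had a peak in all 8 libraries. Irs1 and Pik3r1 had one in 7, Insr, Akt1 and Igf1 in 6, and Igfbp1 in 5. By library, replicate 1 before replicate 2, a peak was called at 8 and 8 of the 8 genes with feeding, 8 and 6 after the fast, 7 and 8 in WT livers, and 2 and 6 in knockout livers. Over all protein-coding genes the shares in that order were 76.1%, 71.2%, 73.1%, 43.6%, 19.6%, 65.0%, 3.58% and 62.4%. Long genes catch more peaks: 7 of the 8 span at least 20 kb, and among all genes of that length the shares were 89.0%, 85.8%, 87.1%, 61.9%, 27.1%, 78.5%, 5.05% and 77.2% in the same order. Near start sites, summits within 1 kb of a listed start were found at 7, 7, 5, 5, 3, 7, 2 and 5 of the 7 genes in the promoter table, in that order, and at 63.9%, 57.0%, 59.2%, 27.0%, 12.0%, 53.4%, 2.83% and 48.5% of 17491 genes. In Fed replicates 1 and 2 and Fasted replicate 1, which had the longest lists, all 8 genes had a peak, close to the 85.8% to 89.0% of long genes. Start-site summits there, at 7, 7 and 5 of 7 genes, were above the shares of all genes, and this was not tested.

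**Figure D1:**
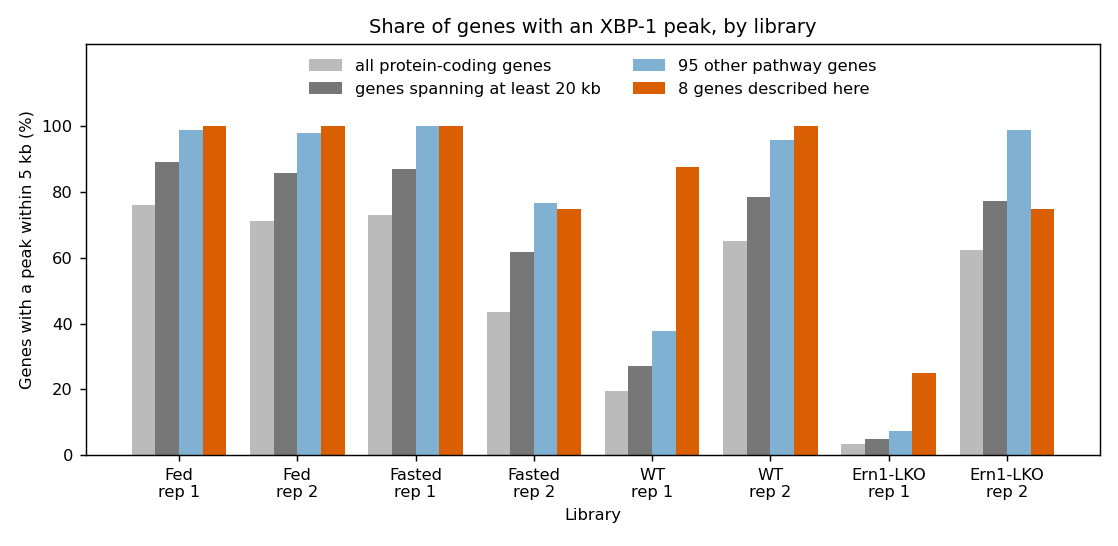
Bars give the percentage of genes with at least 1 peak summit within 5 kb of the span (y axis) in each library (x axis), for all protein-coding genes, genes spanning at least 20 kb, 95 other pathway genes and the 8 genes described. In WT replicate 1 the 8 genes stood at 87.5% and the other pathway genes at 37.9%; in Ern1-LKO replicate 2 they stood at 75.0%, below the 77.2% of long genes.

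Insr, which encodes the cell-surface receptor tyrosine kinase for insulin, spans chr8:3150922-3279649. The authors' fold enrichment of a peak is its height over the local background, and it is comparable within a list. The strongest Insr peak reached 5.0 and 7.1 in the Fed libraries, 8.2 in Fasted replicate 1, 4.9 and 10.2 in the WT libraries and 15.1 in Ern1-LKO replicate 2. Fasted replicate 2 and Ern1-LKO replicate 1 had no peak. The site common to 6 libraries lay at the higher-numbered end of the span, chr8:3279025-3279837, with summits from 2 bases outside the span to 299 bases inside it. A second site, about 18 kb into the gene at chr8:3261566-3261903, was called in Fasted replicate 1, WT replicate 2 and Ern1-LKO replicate 2, with folds from 6.0 to 15.1. In Ern1-LKO replicate 2 this inner site was the stronger by fold (15.1 against 12.7), and the end site was the stronger by the authors' −log10 q-value (27.8 against 26.9).

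Irs1, an adaptor that couples the receptors to phosphoinositide 3-kinase, spans chr1:82233105-82291439 on the minus strand. The strongest Irs1 peak was 6.8-fold and 12.7-fold over background with feeding, 12.9-fold and 5.5-fold after the fast, 5.2-fold and 12.7-fold in WT livers and 15.4-fold in Ern1-LKO replicate 2. No peak was called in Ern1-LKO replicate 1. Sites recurred in 6 libraries at 2 places: the start region, chr1:82289844-82292136, and a site 7813 to 7976 bases inside the gene, chr1:82283232-82283795. With summits within 200 bases joined in place of overlapping intervals, the inner site stayed in 6 libraries, over 163 bases. The start region then split into several groups, the largest with 3 libraries. Fasted replicate 2 had the inner site without the start region, and WT replicate 1 had the start region without the inner site. The 5.2-fold peak of WT replicate 1 lay 56645 bases inside the gene and overlapped no other library's peak, while its start-region peak was 4.2-fold. The summits nearest the CACGTG box shown above were 56 bases from it in Fed replicate 2, 59 in Fasted replicate 1, 209 for WT replicate 1 and 237 for Ern1-LKO replicate 2. In WT replicate 2 and Fed replicate 1 they were 450 and 461 bases away. In Ern1-LKO replicate 2 the nearest summit lay on the upstream side of the box, and in the other libraries on the side of the gene.

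Irs2, the other main adaptor of insulin signalling in liver, spans chr8:10984681-11008929 on the minus strand. The highest fold at Irs2 was 7.3 in Fed replicate 1, 9.8 in Fed replicate 2, 13.1 in Fasted replicate 1 and 8.3 in Fasted replicate 2. WT livers gave 7.0 and 20.6, and knockout livers 6.1 and 24.8. By rank these peaks stood at 3831 of 82975 and 6375 of 47357 with feeding, 5318 of 53973 and 7942 of 19237 after the fast, 1306 of 6258 and 397 of 30327 in WT livers, and 217 of 698 and 183 of 30796 in the knockout. It was thus among the higher peaks of WT replicate 2 and Ern1-LKO replicate 2 and near the middle of Fasted replicate 2.

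The Irs2 peaks formed a broad domain around the start, chr8:11004269-11010100, in which single peaks reached 3894 bases in width (Fed replicate 1). Within it, summits of 7 libraries fell within 186 bases of each other, from position 11009097 to 11009283, upstream of the start. They lay 124 bases from the CACGTG box in WT replicate 1, 141 in WT replicate 2, 150 in Fed replicate 2, 167 in Ern1-LKO replicate 2, 246 in Fed replicate 1, 274 in Fasted replicate 2 and 310 in Ern1-LKO replicate 1, each on the upstream side. Fasted replicate 1 had a peak of 3065 bases across the same region with its summit 1586 bases inside the gene. With summits rather than overlapping intervals joined, within 200 bases, the domain was no longer one region in all 8 libraries and Akt2 was the one gene with such a region.

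Pik3r1 encodes the p85alpha regulatory subunit, which docks the kinase onto IRS proteins, and spans chr13:101680761-101768217 on the minus strand. Fed livers had a strongest Pik3r1 peak of fold 8.6 and 15.1, fasted livers 17.7 and 10.5, WT livers 5.9 and 11.7, and Ern1-LKO replicate 2 15.9. Ern1-LKO replicate 1 had none. In the same 6 libraries 3 sites recurred. One lay just before the first listed start, with summits 219 to 502 bases upstream, and one just after it, with summits 220 to 716 bases downstream.

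The remaining Pik3r1 site, chr13:101694408-101695220, lay over 73 kb into the gene, upstream of a second listed start at position 101692630. Summits of 5 libraries fell within 16 bases of each other there, from 1976 to 1992 bases upstream of that start: 1979 in Fed replicate 2, 1976 and 1989 in Fasted, 1980 for WT replicate 2 and 1992 for Ern1-LKO replicate 2. The fold at the site was 15.1 in Fed replicate 2, 17.7 and 6.4 in the Fasted libraries, 9.1 for WT replicate 2 and 15.9 for Ern1-LKO replicate 2. It was the strongest Pik3r1 peak in Fed replicate 2, Fasted replicate 1 and Ern1-LKO replicate 2. Fed replicate 1 had a weaker peak with a fold of 4.3 and a summit 2410 bases upstream. WT replicate 1 had 3 peaks at Pik3r1, none of which overlapped a peak of another library.

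Akt1 encodes a serine/threonine kinase that acts downstream of phosphoinositide 3-kinase in many tissues, and spans chr12:112653821-112674884 on the minus strand. Its highest fold was 9.5 and 11.5 with feeding, 19.6 and 11.0 after the fast, 11.5 for WT replicate 2 and 18.3 for Ern1-LKO replicate 2. WT replicate 1 and Ern1-LKO replicate 1 had none. In the 6 libraries the strongest peak was at one site, chr12:112673320-112674893, with summits 185 to 483 bases downstream of the second listed start. A further site, chr12:112670775-112671699, was called in 5 libraries with summits within 88 bases of each other and folds from 7.9 to 10.1. The count of 46 Akt1 peaks includes a neighbour's: 17 also lay within 5 kb of Zbtb42, 9 of them inside that gene. The strongest Akt1 site, 6 peaks, is among the 17, so each fold printed for Akt1 comes from a peak in both windows, and so is the site chr12:112678442-112679840, called in 6 libraries. Siva1, on the other side, shared 5.

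Akt2 encodes the AKT form most tied to insulin control of liver metabolism, and spans chr7:27591552-27640826 on the plus strand. Fed libraries reached a fold of 6.0 and 9.9 at Akt2, Fasted libraries 12.8 and 8.4, WT libraries 6.6 and 20.1, and knockout libraries 4.6 and 21.7. The region chr7:27591696-27592362 was called in all 8 libraries, and its 8 summits fell within 123 bases, from 353 to 476 bases downstream of the start. A summit within 1 kb of a listed start in all 8 libraries was found at 1 of 7 genes in the promoter table, Akt2, and at 1.87% of 17491 such genes overall. This start region gave the strongest peak in Fasted replicate 2, WT replicate 2 and both Ern1-LKO libraries. In Fed replicate 2 and Fasted replicate 1 the strongest peak was instead at chr7:27623205-27623607, nearly 32 kb into the gene. That inner site was called in 5 libraries, with summits within 41 bases of each other and folds of 5.5 and 9.9 with feeding, 12.8 and 5.7 after the fast and 5.2 in Ern1-LKO replicate 2, and it was called in neither WT library.

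Igf1, the circulating growth factor made mainly by liver, spans chr10:87858265-87937047 on the plus strand. The strongest Igf1 peak had a fold of 4.9 and 7.3 in Fed livers, 4.8 and 7.0 in Fasted livers, and 7.0 and 8.9 in WT livers. Its percentile within the list was 74.6 and 63.1 with feeding, 17.8 and 43.1 after the fast, and 79.0 and 77.8 in WT livers, where Irs2 stood at 79.1 and 98.7. Neither Ern1-LKO library had a peak. The most frequent site, chr10:87860084-87860462, was called in Fed replicates 1 and 2, Fasted replicate 2 and WT replicate 2, with summits within 43 bases of each other, 819 to 862 bases upstream of the listed start. A site at chr10:87865929-87866200 was called in both Fed libraries and Fasted replicate 1. The 4 Igf1 peaks of WT replicate 1 overlapped no peak of another library, and its strongest lay 36426 bases downstream of the listed start.

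Igfbp1, a hepatic secreted protein that binds insulin-like growth factors and whose gene is known to be repressed by insulin, spans chr11:7197787-7202546 on the plus strand. At this gene the highest fold was 5.6 and 7.0 with feeding, 7.2 in Fasted replicate 1, and 5.0 and 4.1 in the WT libraries. Fasted replicate 2 and both Ern1-LKO libraries had none. The site chr11:7197863-7198327, with summits 259 to 379 bases downstream of the start, was called in both Fed libraries, Fasted replicate 1 and WT replicate 2. Its fold was 4.1 in WT replicate 2, at rank 28489 of 30327. WT replicate 1 had 2 peaks, 3017 and 4862 bases upstream of the start, and neither overlapped a peak of another library. None of the Igfbp1 peaks lay in the window of Igfbp3, the adjacent gene.

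**Figure D2:**
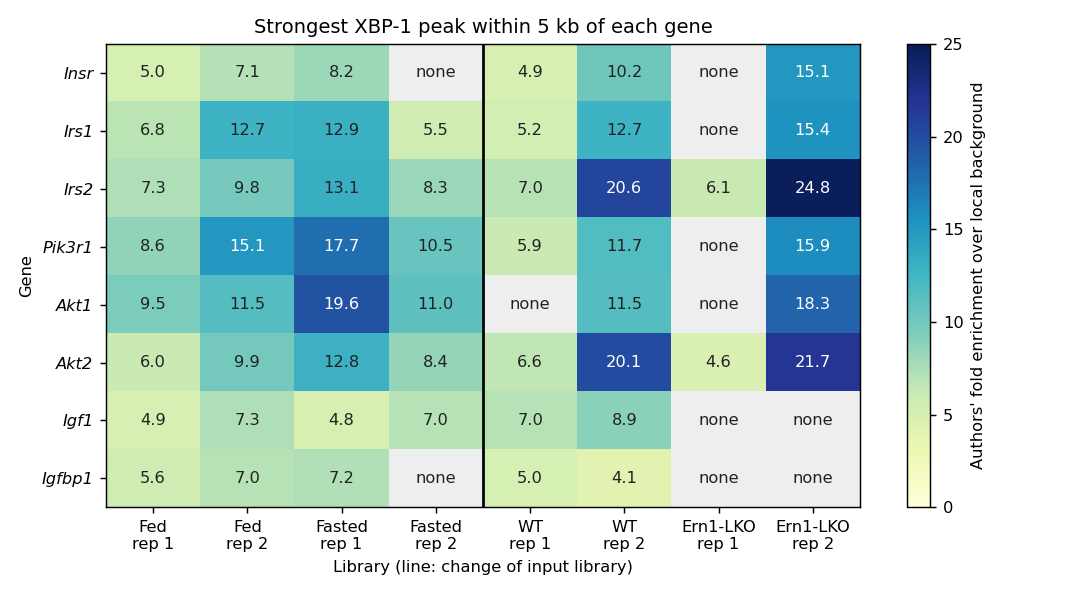
Each cell gives the authors' fold enrichment of the strongest peak within 5 kb of a gene (rows) in a library (columns), with the colour scale from 0 to 25 and grey where no peak was called; the vertical line marks the change of input library. Values are comparable down a column, and Irs2 heads the WT replicate 2 and Ern1-LKO replicate 2 columns at 20.6 and 24.8, where Igfbp1 stands at 4.1 and none.

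Across the 8 genes the peaks joined by overlap into 92 regions. Of these, 61 were called in 1 library, 18 in at least 4 and 2 in all 8. Each of the 8 genes had at least 1 region called in at least 4 libraries. Of the 18 recurrent regions, 8 had a summit within 1 kb of the 5′ end of the span. Regions were not counted at other genes, so whether these counts are usual for genes of such length was not tested. Of the 70 peaks at these genes in Fed replicate 1, 29 overlapped another library's peak and 41 did not. Of the 17 in WT replicate 1, 7 did and 10 did not. Over the whole lists of these libraries, 45.7% and 52.0% of peaks overlapped one. In the other 6 libraries 10 of 120 peaks at these genes overlapped none, and over their whole lists 82.1% to 99.7% of peaks overlapped one.

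**Figure D3:**
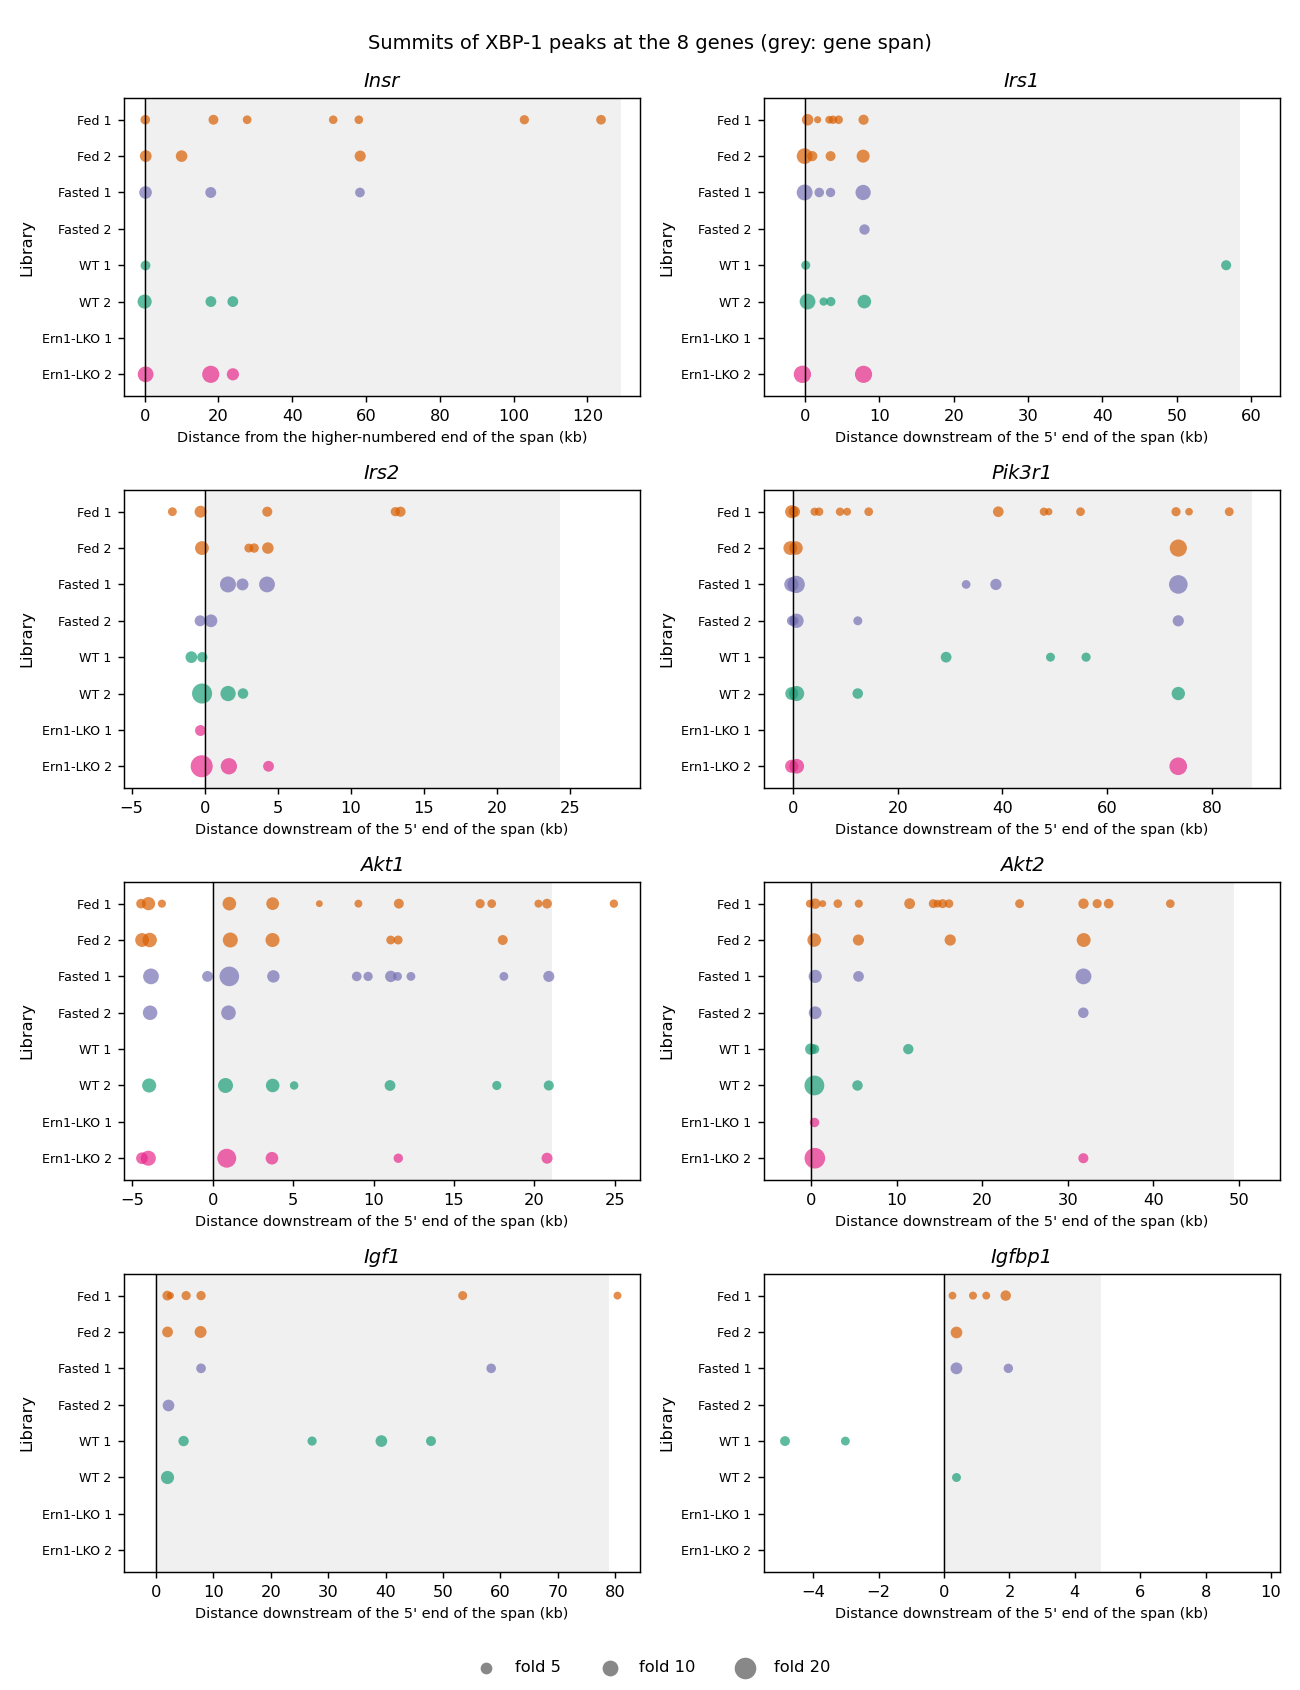
Points mark peak summits by distance in kb from the 5′ end of each gene's span (x axis; for Insr, from its higher-numbered end) in each library (y axis), with point area proportional to the authors' fold and grey for the gene span. Summits line up near 0 at Insr, Irs1, Irs2, Pik3r1 and Akt2, at about 73 kb in Pik3r1 and 32 kb in Akt2, and both Ern1-LKO rows are empty at Igf1 and Igfbp1.

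Set against well-known XBP-1 targets, the peaks at the 8 genes were lower in their lists. The 10 reference genes, which include the chaperone gene Hspa5, Dnajb9, Sdf2l1, Pdia4 and Xbp1 itself, had a median strongest fold of 40.3 and 61.2 in the Fed lists, where the 8 insulin signalling genes had 6.4 and 9.9. The Fasted medians were 58.5 and 19.9 against 12.8 and 8.3, the WT medians 22.7 and 37.5 against 5.9 and 11.6, and the Ern1-LKO medians 10.8 and 35.1 against 5.4 and 17.1, for the genes with a peak. The lowest reference gene exceeded the highest of the 8 in Fed replicates 1 and 2, Fasted replicate 1 and WT replicate 1 (24.0 against 9.5, 34.2 against 15.1, 27.3 against 19.6 and 12.5 against 7.0). The ranges overlapped in the other 4 libraries. The reference list was drawn up from known targets with earlier results of these data in view, so the gap is a description.

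**Figure D4:**
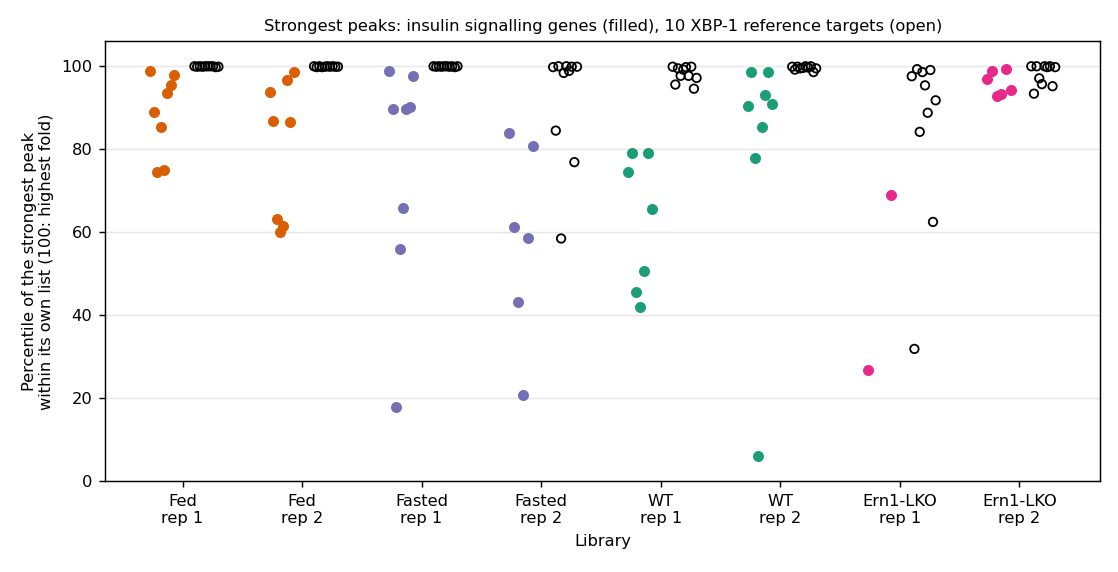
Points give the within-list percentile of the strongest peak (y axis; 100 is the highest fold in that list) by library (x axis), filled for the insulin signalling genes with a peak and open for the 10 reference XBP-1 targets. In Fed replicate 1 the filled points lie between 74.6 and 98.8 and the open ones at 99.8 or above; in Ern1-LKO replicate 1 the 2 filled points lie at 26.9 and 69.1.

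Between fed and fasted livers no difference in which of the 8 genes carried peaks was resolved. The genes with a peak averaged 8.0 in Fed and 7.0 in Fasted. None had a peak in both Fed libraries and neither Fasted library, or the reverse; over all genes those shares were 1.2% and 0.0731%, and over long genes 1.23% and 0.0697%. Peaks in both libraries of the group were called at 8 genes with feeding (68.7% of all genes and 83.4% of long genes) and at 6 after the fast (43.2% and 61.4%). The 2 genes short of this, Insr and Igfbp1, lacked a peak in Fasted replicate 2, the list of 19237 peaks, and had one in Fasted replicate 1. Without Fasted replicate 2, or in the authors' pooled lists, all 8 genes had a peak in both conditions. They also did in Fed replicate 2 and Fasted replicate 1, the lists nearest in length, where 2.09% of all genes had a peak in the former alone and 3.96% in the latter alone. An exact permutation test of 2 libraries against 2 cannot give a p below 0.33, so no difference between these groups can pass 0.05.

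Between WT and Ern1-LKO livers, Igf1 and Igfbp1 were the 2 genes with a peak in both WT libraries and in neither Ern1-LKO library. Over all genes 196 did so, or 0.896%, and of genes spanning at least 20 kb 0.976%. No gene, of the 8 or of all, had peaks in both Ern1-LKO libraries and neither WT library (0.0%). Genes with a peak averaged 7.5 in WT and 4.0 in Ern1-LKO; both libraries had a peak at 7 genes in WT (18.3% of all genes, 25.5% of long genes) and at 2, Irs2 and Akt2, in the knockout (3.54% and 5.03%). With each list cut to its top 698 peaks by fold, WT had 0 and 2 of the 8 genes and Ern1-LKO 2 and 2. Where 2 were called they were Irs2 and Akt2. Ern1-LKO replicate 1, whose whole list is 698 peaks, had a peak at 3.58% of all genes. For the other libraries the share of all genes at that cut was not counted. That cut had to remove Igf1, at rank 1315 and 6719 in the WT lists, and Igfbp1, at rank 3408 and 28489.

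WT replicate 2 and Ern1-LKO replicate 2 had lists of nearly equal length, 30327 and 30796 peaks, a pair chosen after the list lengths were seen. In it 8 and 6 of the 8 genes had a peak, and Igf1 and Igfbp1 were the 2 with a peak in WT alone; over all genes this held for 6.18%, and the reverse for 3.59%. Ern1-LKO replicate 2 had 4340956 kept tags and WT replicate 2 had 9176542, and the part of depth in this was not tested. The authors' pooled lists, of 13841 peaks in WT and 14428 in Ern1-LKO, also had a peak at Igf1 and Igfbp1 in WT, with a fold of 3.9 at each, and none in Ern1-LKO; 7.5% of all genes did the same, and 5.3% the reverse. The pooled WT peaks lay at the sites of WT replicate 1 and not at those of WT replicate 2, so the presence of a peak in both WT libraries rests on different sites at each gene.

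The wider pathway was described with 103 genes in 9 roles, the 8 genes included. Fed replicates 1 and 2 had a peak at 102 and 101 of them, and Fasted replicates at 103 and 79. WT replicates had one at 43 and 99, and Ern1-LKO replicates at 9 and 100. In the same order, 76.1%, 71.2%, 73.1%, 43.6%, 19.6%, 65.0%, 3.58% and 62.4% of all genes had a peak. Among genes spanning at least 20 kb the shares were 89.0%, 85.8%, 87.1%, 61.9%, 27.1%, 78.5%, 5.05% and 77.2%. The pathway counts averaged 101.5 (Fed), 91.0 (Fasted), 71.0 (WT) and 54.5 (Ern1-LKO). Without Fasted replicate 2 the Fed minus Fasted difference was -1.5 genes in place of 10.5, and without Ern1-LKO replicate 1 the WT minus Ern1-LKO difference was -29.0 in place of 16.5, so both directions rested on those libraries. Without WT replicate 2 it was -11.5. In the pair of nearly equal length 99 had a peak for WT replicate 2 and 100 for Ern1-LKO replicate 2.

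Peaks in both libraries of a group were counted by role, beside 68.7%, 43.2%, 18.3% and 3.54% of all genes for Fed, Fasted, WT and Ern1-LKO. The counts are in the order Fed, Fasted, WT, knockout. Of 15 ligand and receptor genes, 13, 11, 7 and 1 had such peaks. Of 11 adaptor genes the counts were 11, 10, 7 and 3. Of 7 phosphoinositide 3-kinase genes they were 7, 5, 2 and 0, and of 13 AKT and mTOR kinase genes 13, 10, 5 and 2. Of 13 AKT target genes they were 13, 11, 4 and 0, of 18 inhibitor genes 17, 13, 6 and 1, and of 15 genes of the RAS and MAPK branch 15, 12, 7 and 0. Of 3 growth hormone signalling genes they were 3, 2, 1 and 2. Except in the last role, the counts were ordered like the shorter list of each group.

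A peak was found at 4 of the 103 genes in all 8 libraries, or 3.88% against 2.64% of all genes and 3.84% of long genes. Beside Irs2 and Akt2 they were Grb2, the adaptor that links receptors to RAS, and Stat5b, which carries growth hormone signals to Igf1. The strongest Grb2 peak was 11.9-fold and 13.2-fold with feeding, 26.5-fold and 11.5-fold after the fast, 5.3-fold and 16.7-fold in WT livers, and 4.5-fold and 23.3-fold in knockout livers. For Stat5b the same order gave folds of 9.7, 9.1, 23.5, 11.7, 4.9, 7.0, 5.0 and 22.2. Of the 95 genes outside the 8, none had peaks in both libraries of one group and neither of the other in either comparison. Such genes were few among all genes too: 1.2% for Fed alone, 0.0731% for Fasted, 0.896% for WT and 0.0% for Ern1-LKO.

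Peaks in the 2 libraries of a group were found at 8 of 8 IGF binding protein genes with feeding, 5 after the fast, 4 in WT livers and 0 in knockout livers. In Ern1-LKO replicate 2, 6 of these 8 genes had a peak (75.0%, against 62.4% of all genes and 77.2% of long genes). The pathway genes without a peak in that library were Igf1, Igfbp1 and Igfbp6; the last, a binding protein with a preference for IGF-II, is named here because it completes that count. Igfbp6 had a fold of 5.2 and 5.3 with feeding, 7.3 in Fasted replicate 1 and 7.3 in WT replicate 2. The other pathway genes, 100 of 103 (97.1%), had a peak in Ern1-LKO replicate 2.

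The genes nearest to Irs2 in pattern were found by the mean absolute difference, over the 8 libraries, of the within-list percentile of the strongest peak. They included Tmem59l, on chromosome 8 like Irs2, at 3.3 percentile points and Ywhaz, on chromosome 15, at 4.6. The values for Ywhaz, which encodes a 14-3-3 protein that binds phosphorylated proteins, were 97.6 and 89.8 with feeding, 96.7 and 76.6 after the fast, 77.6 and 98.0 in WT livers, and 64.5 and 99.6 in knockout livers. Those for Irs2 were 95.4 and 86.5, 90.1 and 58.7, 79.1 and 98.7, and 69.1 and 99.4.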

How the data were processed

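Livers were profiled by chromatin immunoprecipitation and sequencing in 8 libraries, with 2 input libraries used by the peak caller alone. The build mm10 and the tools Bowtie2 2.2.5, MACS2 2.2.1, FastQC 0.11.3 and bcl2fastq are listed in the submitters' processing notes; per the file headers, the MACS version was 2.1.1.20160309, with single-end tags, a q cutoff of 0.05, 1 tag kept per position and the larger dataset scaled to the smaller. Repeated tags made up 9.0% to 47.0% of a library. The deposited lists give the pileup signal, −log10 p- and q-values and the fold ratio of each peak as the authors' caller wrote them; these were used to describe, rank and filter peaks within a list. The 4 deposited lists of pooled libraries are the authors' own and carry no replicate error.

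Summits were assigned to gene spans of the RefSeq table for GRCm38.p6, the assembly called mm10, with Python 3.11.15, numpy 2.4.6, pandas 2.3.3 and scipy 1.17.1. No genome sequence was used here, so exons and introns are not given. Insr is named without a promoter sequence. Peaks overlapping by 1 base were joined into regions. A start-site peak has its summit within 1 kb of a start in the RefSeq promoter table, which matched 17491 genes. The 8 genes and the gene lists were chosen with earlier results of these data known. All 8 were named; of other pathway genes, those with a peak in all 8 libraries (at most 3 a role) or in both libraries of one group and neither of the other; of all genes, the 3 nearest to Irs2, of which 1 is not reported here; and neighbours sharing peaks. Group counts were set up for an exact permutation test, whose smallest p is 0.33; since the genes were chosen with results known, no p is given for them. Any spread between these libraries may be technical. Counting steps were tested on simulated peaks. Alternatives were another window, stricter −log10 q and fold limits, equal numbers of top peaks, each library left out, the pooled lists, summit-based regions and a replicate block.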

Additional observations from a re-analysis of the deposited data

How the results depend on the processing

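The Fed minus Fasted difference in genes with a peak, 1.0 of the 8, was 0.0 without Fasted replicate 2, in the pooled lists and with Fed replicate 2 set against Fasted replicate 1 (nearest in list length, chosen after seeing the data), and ranged from 0.0 to 2.0 with each library left out. Over the 103 pathway genes, the difference of 10.5 was -1.5 without Fasted replicate 2 and -2.0 in that pair, with a range of -1.5 to 22.5 with each library left out. The WT minus Ern1-LKO difference of 3.5 of the 8 genes was -1.0 with equal numbers of top peaks, by fold and by −log10 q, and ranged from 1.5 to 5.5 with each library left out. Over pathway genes the difference of 16.5 was -5.0 with equal top peaks by fold, -4.5 by −log10 q, -1.0 for WT replicate 2 against Ern1-LKO replicate 2, -11.5 when WT replicate 2 was left out and -29.0 when the first Ern1-LKO library was; left-out libraries gave -29.0 to 62.0. The count limited to WT, 2, was 1 (Igf1) with a 1 kb window, with −log10 q of at least 10 and with a fold of at least 5, and 0 with equal top peaks by either measure; with each library left out it ranged from 2 to 5, the 5 without Ern1-LKO replicate 2. The count limited to Fed, 0, was 1 (Igfbp1) with equal top peaks by fold and up to 2 with a library left out (Insr and Igfbp1, without Fasted replicate 1). The counts limited to Fasted and to Ern1-LKO were 0 under each alternative run.

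Equal top peaks meant 19237 peaks a list in Fed and Fasted and 698 in WT and Ern1-LKO, so the counts below join unlike cuts. By fold, Insr, Igf1 and Igfbp1 then had a peak in 2 libraries each and Irs1 and Pik3r1 in 4 each. By −log10 q, Insr, Igf1 and Igfbp1 had one in 3 each and Irs1 and Pik3r1 in 4 each. The whole lists of those lengths, Fasted replicate 2 and Ern1-LKO replicate 1, had a peak at 43.6% and 3.58% of all genes. For the other libraries that share was not counted. Igfbp1 had a peak in 3 libraries with −log10 q of at least 10 or a fold of at least 5. Akt1 had a peak in 4 libraries in place of 6 with equal top peaks by either measure. These were the Fed and Fasted libraries, as for Irs1 and Pik3r1. The counts for Irs2 and Akt2 stayed within 1.5 times under each alternative run. With a 1 kb window every strongest fold that could be recomputed was equal; with the peak of highest −log10 q in place of highest fold, 6 values differed, the widest being Insr in Ern1-LKO replicate 2 (12.7 in place of 15.1), Pik3r1 in Fasted replicate 1 (15.3 in place of 17.7) and Akt2 in WT replicate 1 (5.5 in place of 6.6). Equal top peaks hold fewer peaks by construction; for the other settings the cause was not tested.

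With the replicate block the differences were the same, 1.0 and 10.5 for Fed minus Fasted and 3.5 and 16.5 for WT minus Ern1-LKO, and no call changed. Deviations of same-numbered libraries correlated at 0.01 in the first comparison and 0.47 in the second, with 2 pairs each; the labels do not say whether the numbers pair the libraries, and 2 pairs were too few to decide it here. The smallest lists, with 698 and 6258 peaks, limit what both-library counts can show, and a gene without a peak may carry signal below the caller's cutoff.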
